A study of Mus musculus with 12 samples.

Results

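The ADAM, ADAMTS, ADAMTS-like (ADAMTSL), MMP and TIMP genes were examined in 4 fibroblast populations sorted from newborn mouse dermis. Members were chosen by symbol: genes named Adam, Adamts, Adamtsl, Mmp or Timp followed by a number, with a probe set that the array's annotation gives 1 symbol only. Family members without such a probe set were not analysed here. This gave 66 genes of the 17097 tested, made up of 26 ADAM, 14 ADAMTS, 5 ADAMTSL, 18 MMP and 3 TIMP genes. Where a gene had several probe sets, the one brightest on average stood for it.

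Dermal fibroblasts came from 3 female littermates aged 2 days, and 1 array was hybridised for each of the 4 populations of each animal. The labels give no strain, genotype or treatment that separates the groups. All sorted cells carried Pdgfra and CD34 and lacked CD45, CD117, CD31 and EpCam, after removal of the tissue below the dermis and digestion with collagenase. Papillary fibroblasts were CD26+ and lacked Dlk1 and Sca1, reticular fibroblasts were Dlk1+ and lacked CD26 and Sca1, and the pre-adipogenic fibroblasts lacked CD26 and were either Dlk1+ Sca1+ or Dlk1- Sca1+.

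MMPs, ADAMs and ADAMTS proteases are zinc-dependent enzymes that are made as inactive precursors. Secreted MMPs and ADAMTS proteases cut collagens, proteoglycans and other matrix proteins, membrane-type MMPs do so at the cell surface, and catalytic ADAMs release the outer parts of membrane proteins such as growth factors. ADAMTSL proteins resemble ADAMTS proteases but lack the protease domain, and TIMPs are secreted inhibitors that bind the active site. In dermis these enzymes take part in the turnover of versican and collagen, and some ADAMs, such as Adam22 and Adam23, have no protease activity and act in adhesion.

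Levels are the authors' deposited log2 values, in which a difference of 1 is a 2-fold change, and differences are given with the limma standard error (SE). A difference was called where the Benjamini-Hochberg adjusted p over all genes was under 0.05. Array medians lay between 6.21 and 6.34, and probe sets differ in affinity, so no level was set against that of another gene. A list of 10 fibroblast markers had array means from 10.92 to 11.14. The mean of 8 mural cell markers was 6.20 to 6.34 in papillary, 7.41 to 8.18 in reticular, 6.90 to 7.62 in Dlk1+ Sca1+ and 6.67 to 6.94 in Dlk1- Sca1+ arrays. For 9 skeletal muscle markers these means were 5.77 to 5.83, 6.61 to 6.80, 6.25 to 6.33 and 5.86 to 5.99 in the same order. The Dlk1- Sca1+ array of animal 1 stood apart in 8 keratinocyte markers, at 9.64 against 7.27 and 7.39 in the other two arrays of that gate. The same array was also the highest for 7 Schwann cell and melanocyte markers, at 7.41 against 6.51 and 5.99, and for 6 mast cell markers, at 5.88 against 4.93 and 4.89. Without that array 25, 19 and 14 members were called in its 3 comparisons, against papillary, reticular and Dlk1+ Sca1+ cells, where 28, 22 and 16 were called with it. The share of all genes called without that array was not computed. The Schwann cell and melanocyte means of papillary, reticular, Dlk1+ Sca1+ and Dlk1- Sca1+ cells were 5.72, 5.96, 6.24 and 6.63, and 5 of the 7 markers were called lower in the papillary than the Dlk1- Sca1+ gate. The means of 5 measured adipocyte markers were 5.44, 6.40, 6.91 and 7.08, and those of 8 endothelial markers 5.91, 6.41, 6.49 and 6.16, with 3 and 4 of the endothelial markers lower in papillary than in reticular and Dlk1+ Sca1+ cells. Fewer cells of a type and less RNA per cell cannot be told apart in such samples, and the part of these other cells in the results was not tested.

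Papillary fibroblasts had lower levels than the other populations for many of these genes. Against reticular cells 7 members were higher and 25 lower in papillary cells, so 48.5% were called where 27.5% of all genes were (13.9% higher and 13.6% lower). Against Dlk1+ Sca1+ cells 8 were higher and 24 lower, again 48.5% against 28% of all genes (14.1% higher and 13.9% lower). Against Dlk1- Sca1+ cells 9 were higher and 19 lower, 42.4% against 26.4% of all genes (13.1% higher and 13.3% lower). The median difference of the 66 members was -0.06, -0.03 and -0.02 in these 3 comparisons and that of all genes lay within 0.01 of 0. The 3 comparisons share the papillary arrays. Called differences of 1 or more on the log2 scale numbered 11, 14 and 15 of 66, where 5.56%, 6.57% and 6.2% of all genes had one.

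**Figure D1:**
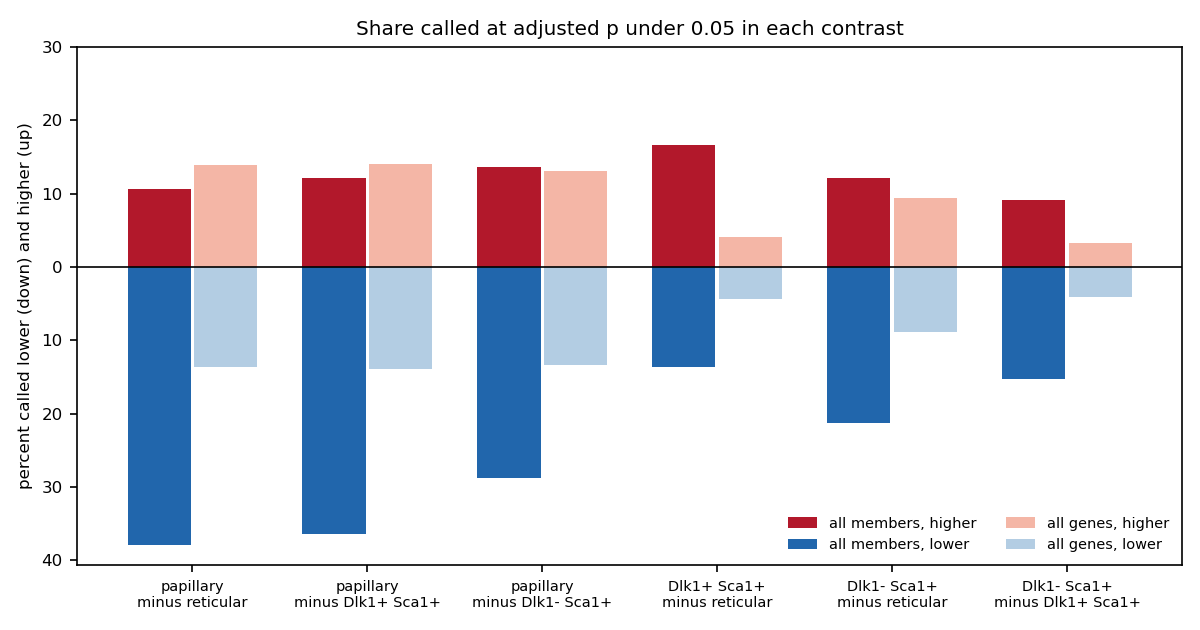
Share of the 66 members and of all 17097 genes called higher or lower in each of the 6 comparisons, in percent. Papillary cells against reticular cells had 48.5% of members called against 27.5% of all genes, mostly in the lower direction.

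Among the other 3 populations the differences were fewer. Between Dlk1+ Sca1+ and reticular cells 11 members were higher and 9 lower in the former, 30.3% against 8.43% of all genes (4.06% higher and 4.37% lower). That count of 20 fell to 11 without animal 2 and to 8 without animal 3, and to 12 without either the reticular or the Dlk1+ Sca1+ array of animal 3. Between Dlk1- Sca1+ and reticular cells 8 were higher and 14 lower, 33.3% against 18.2% of all genes (9.36% higher and 8.8% lower). Between Dlk1- Sca1+ and Dlk1+ Sca1+ cells 6 were higher and 10 lower, 24.2% against 7.36% of all genes (3.23% higher and 4.13% lower), and the 16 fell to 10 without animal 2 or without animal 3. Called differences of 1 or more numbered 6, 7 and 5 in these 3 comparisons, where 1.37%, 2.71% and 1.15% of all genes had one. The share of all genes called was not computed for the fits without an animal or array.

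A moderated F-test over the 4 populations passed 36 of the 66 members, 54.5%, against 35.7% of all genes, and 38 members were called in at least 1 of the 6 comparisons, against 42.1% of all genes. By family the 36 were 11 of 14 ADAMTS, 5 of 5 ADAMTSL, 3 of 3 TIMP, 10 of 26 ADAM and 7 of 18 MMP genes. Counted from the pairwise calls, 16 members were lower in papillary cells than in each other population (7.29% of all genes were): Adam8, Adam9, Adam12, Adam19, Adam23, Adamts4, Adamts7, Adamts9, Adamts12, Adamts15, Adamts18, Adamts20, Adamtsl1, Mmp17, Mmp19 and Timp1. Only Adam22, Adamts5, Mmp11 and Mmp14 were higher there than in each other population, where 7.97% of all genes were. With the animal as a block Adam17 joined the first group and Adam33 the second. Reticular cells were highest for Adamts6, Adamts20 and Mmp16 (1.85% of all genes) and lowest for Adamts5 and Adamtsl5 (1.06%). Dlk1+ Sca1+ cells were highest for Adam23, Adamtsl4, Mmp3 and Timp1 (0.579%), joined by Adamts12 with the block, and lowest for Mmp11 (0.462%). Dlk1- Sca1+ cells were highest for Adamts7, Adamts18 and Adamtsl5 (1.54%), joined by Adamts9 and Adamts15 with the animal as a block, and lowest for Adam33 and Mmp16 (1.09%), joined by Adam22 with the block.

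**Figure D2:**
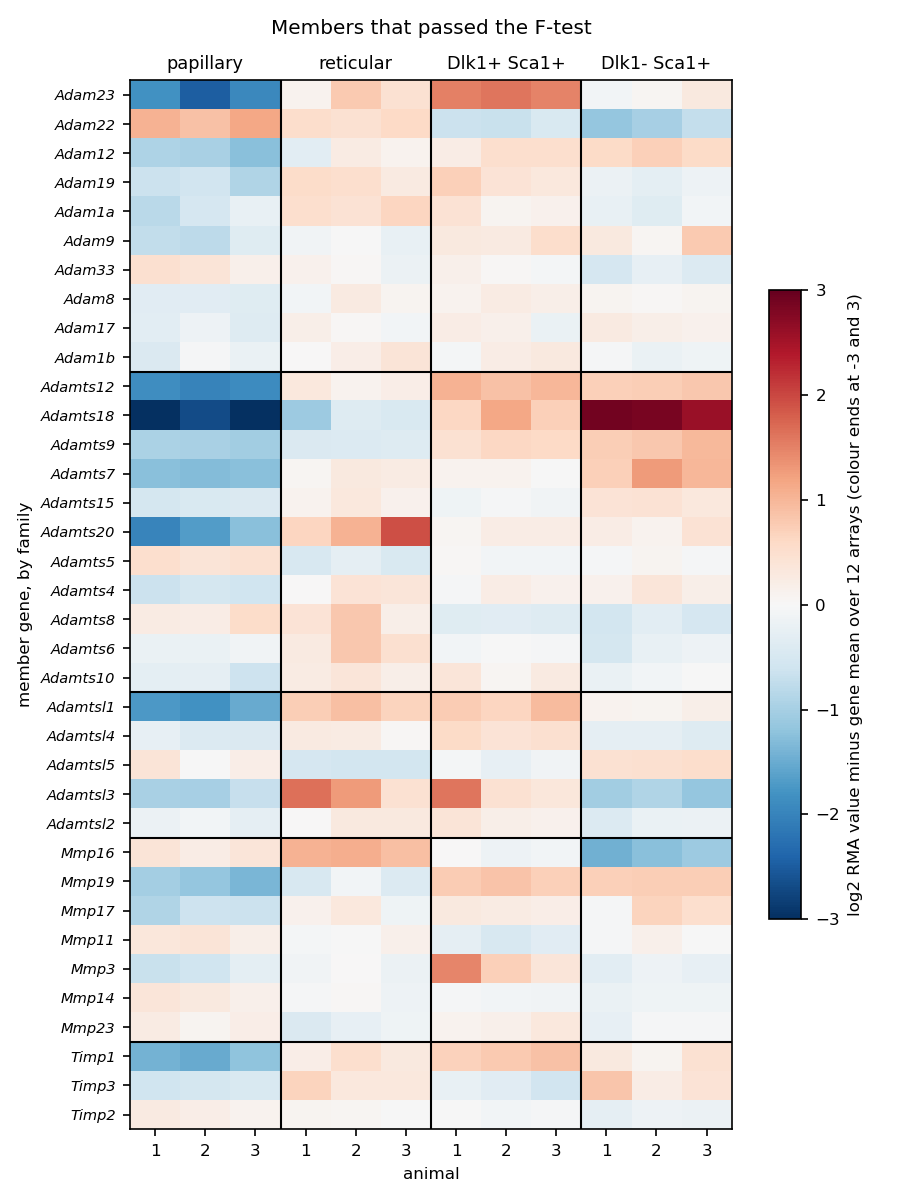
Level of each of the 36 members that passed the F-test in each of the 12 arrays, as the log2 value minus the gene's mean over the arrays. The 3 papillary columns are low for most members and high for Adam22, Adamts5, Mmp11 and Mmp14. They also lie above the gene's mean for some others, such as Adam33, Adamts8 and Timp2. The 3 animals of a population resemble each other.

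Adamts18 had the largest difference of any member. It encodes a secreted protease known from eye development. In animals 1, 2 and 3 its levels were 4.44, 4.88 and 4.51 in papillary, 6.47, 7.18 and 7.12 in reticular, 8.19, 8.72 and 8.28 in Dlk1+ Sca1+ and 10.46, 10.42 and 10.15 in Dlk1- Sca1+ cells. The populations did not overlap and followed this order in every animal. Papillary cells were 53.2-fold below Dlk1- Sca1+ cells (-5.73 ± 0.19, adjusted p = 2.78e-10), 13.8-fold below Dlk1+ Sca1+ cells and 4.97-fold below reticular cells. Dlk1- Sca1+ cells were 10.7-fold above reticular and 3.85-fold above Dlk1+ Sca1+ cells (adjusted p = 1.24e-07 and 5.24e-05). The other two probe sets of the gene gave papillary minus Dlk1- Sca1+ differences of -5.40 and -3.35. All papillary values lay below every array median, where no detection call was used, so these folds describe the deposited values and are best read as lower bounds. The same order of populations was followed by 3 lists of marker means. These were the keratinocyte list (6.93, 7.10, 7.62 and 8.10) and the Schwann cell and melanocyte and adipocyte lists, given above. In the adipocyte list this came mostly through Fabp4. Its group means were 5.73, 10.08, 12.28 and 12.47 in that order. Adipoq also rose throughout, at 4.30, 4.57, 4.66 and 5.42. Lep (4.45, 4.53, 4.43 and 4.54), Retn (6.76, 6.81, 6.98 and 6.79) and Plin4 (5.94, 6.02, 6.21 and 6.20) did not keep the order. The part of the cells of these 3 lists was not tested.

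Adamts12, a protease that cuts cartilage oligomeric matrix protein, was at 7.84, 7.69 and 7.82 in papillary cells. It was at 10.01, 9.80 and 9.90 in reticular, 10.74, 10.58 and 10.69 in Dlk1+ Sca1+ and 10.42, 10.44 and 10.50 in Dlk1- Sca1+ cells. All papillary values lay below all others, by 4.35-fold against reticular (-2.12 ± 0.08, adjusted p = 7.43e-10), 7.4-fold against Dlk1+ Sca1+ (adjusted p = 4.34e-11) and 6.36-fold against Dlk1- Sca1+ cells (adjusted p = 8.48e-11). Both Sca1+ populations were also above reticular cells, by 0.77 ± 0.08 and 0.55 ± 0.08. Between the Sca1+ populations the difference of -0.22 was not called (adjusted p = 0.137; 0.0464 with the animal as a block).

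RefSeq start-site windows (GRCm38.p6) are shown for these genes and for Timp1, described below, because, taking each gene's largest papillary difference over the 3 comparisons, Adamts18 and Adamts12 led the ADAMTS genes and Timp1 the TIMPs. Each is 250 bases long and ends at the start site, read along the gene's strand, with matches to GGGCGG or CCAAT on either strand in capitals. Adamts18 lies on the minus strand at chr8:113848840-113849089, Adamts12 on the plus strand at chr15:11064523-11064772 and Timp1 on the plus strand at chrX:20869916-20870165.
Adamts18: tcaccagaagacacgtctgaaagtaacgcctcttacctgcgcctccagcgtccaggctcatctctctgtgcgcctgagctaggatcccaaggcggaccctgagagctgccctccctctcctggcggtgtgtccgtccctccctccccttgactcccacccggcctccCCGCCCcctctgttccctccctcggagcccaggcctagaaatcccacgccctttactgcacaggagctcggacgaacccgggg
Adamts12: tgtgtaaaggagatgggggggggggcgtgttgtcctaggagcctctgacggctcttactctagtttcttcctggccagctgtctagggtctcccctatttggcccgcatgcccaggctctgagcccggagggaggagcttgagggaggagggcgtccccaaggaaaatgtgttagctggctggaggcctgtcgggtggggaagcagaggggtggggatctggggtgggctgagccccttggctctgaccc
Timp1: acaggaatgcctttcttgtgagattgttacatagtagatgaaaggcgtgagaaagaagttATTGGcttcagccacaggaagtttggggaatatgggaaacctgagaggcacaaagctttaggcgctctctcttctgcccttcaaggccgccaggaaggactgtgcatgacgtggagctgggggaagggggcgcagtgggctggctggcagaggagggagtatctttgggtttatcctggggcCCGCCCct
The Adamts18 window holds 1 GC box beginning 83 bases before the start, and the Timp1 window holds a CCAAT box at 190 and a GC box at 8 bases before it. The Adamts12 window holds no match to any of the 4 motifs searched, which are these boxes, TATAAA and the AP-1 site given further on. In all 32851 windows of the table GGGCGG occurred in 32.7% and CCAAT in 33.8%, against 43.2% and 27.3% of the 44 windows of the 39 members that had one.

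Other ADAMTS genes low in papillary cells differed in which population was highest. Adamts9, a protease of versican and basement membranes, was at 8.95, 8.91 and 8.84 in papillary, 9.45, 9.49 and 9.50 in reticular, 10.35, 10.52 and 10.50 in Dlk1+ Sca1+ and 10.63, 10.70 and 10.86 in Dlk1- Sca1+ cells. Its groups did not overlap, with 3.56-fold between papillary and Dlk1- Sca1+ cells (-1.83 ± 0.08, adjusted p = 2.39e-09); the gene's other probe sets gave smaller differences. The Sca1+ populations differed by 0.27 (adjusted p = 0.056; 0.034 with the animal as a block). Adamts7, which also cuts cartilage oligomeric matrix protein, was at 7.12, 7.07 and 7.13 in papillary, 8.43, 8.66 and 8.61 in reticular, 8.49, 8.48 and 8.37 in Dlk1+ Sca1+ and 9.10, 9.65 and 9.38 in Dlk1- Sca1+ cells. Papillary cells were 4.82-fold below Dlk1- Sca1+ cells (adjusted p = 1.17e-08), while reticular and Dlk1+ Sca1+ values overlapped (adjusted p = 0.728).

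Adamts20, a protease needed for melanoblast survival in skin, was highest in reticular cells. Its levels were 4.30, 4.61 and 5.03 in papillary, 6.93, 7.31 and 8.22 in reticular, 6.33, 6.50 and 6.51 in Dlk1+ Sca1+ and 6.51, 6.38 and 6.71 in Dlk1- Sca1+ cells. Papillary cells were 7.16-fold below reticular cells (-2.84 ± 0.26, adjusted p = 3.17e-06), and the reticular array of animal 3 was the highest of all. The papillary values lay below every array median, so this fold too is best read as a lower bound. Both Sca1+ populations were about 1 log2 unit below reticular cells, at -1.04 (adjusted p = 0.027) and -0.95 (adjusted p = 0.0226). Neither call held without that array (adjusted p = 0.0598 and 0.0585), without animal 2 (0.179 and 0.176) or with only the compared populations fitted, and the first was also lost without animal 3 (0.0628). Reticular arrays also had the highest mural and muscle marker means, given above, and the part of those markers was not tested.

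Adamts5, the main aggrecan-cutting protease, went the other way. It was at 10.30, 10.18 and 10.24 in papillary, 9.31, 9.52 and 9.34 in reticular, 9.82, 9.72 and 9.72 in Dlk1+ Sca1+ and 9.75, 9.88 and 9.75 in Dlk1- Sca1+ cells, so papillary values were the highest and reticular ones the lowest. Papillary minus reticular gave 0.85 ± 0.08 (adjusted p = 3.07e-06). Reticular cells were below Dlk1+ Sca1+ (0.36, adjusted p = 0.0112) and Dlk1- Sca1+ cells (0.40, adjusted p = 0.00277), calls lost without animal 1 or 3 (0.146 and 0.198) and without animal 3 (0.0701). Adamts4, its close relative, was lower in papillary cells by -0.85, -0.69 and -0.80 against reticular, Dlk1+ Sca1+ and Dlk1- Sca1+ cells. Adamts15 and Adamts8 are adjacent genes in RefSeq and differed in direction in some comparisons. Against Dlk1- Sca1+ cells the papillary difference was -0.86 for Adamts15 (adjusted p = 1.82e-06) and 0.80 for Adamts8 (adjusted p = 0.000701). All 12 values of Adamts8 lay below every array median. Both were called lower in Dlk1+ Sca1+ than in reticular cells (means 6.31 against 6.59 and 4.92 against 5.74), the Adamts15 call being lost without any 1 animal. Adamts6, dim on all arrays, was highest in reticular cells, with differences of -0.69 for papillary, -0.56 for Dlk1+ Sca1+ and -0.81 for Dlk1- Sca1+ cells minus reticular cells, the Dlk1+ Sca1+ call being lost without animal 2 or 3 (adjusted p = 0.157 and 0.168). Adamts10 was lower in papillary than in reticular (-0.65) and Dlk1+ Sca1+ cells (-0.62), and Adamts3 was called once, at -0.33 for Dlk1+ Sca1+ minus reticular, with an adjusted p of 0.0449 that rose to 0.496 at most over the alternatives. With the block Adamts3 was also called for papillary minus reticular (-0.24, adjusted p = 0.0428) and Adamts15 for Dlk1- Sca1+ minus reticular (0.20, adjusted p = 0.0459). Among ADAMTS genes only Adamts1 and Adamts16 were called in no comparison, with or without the block.

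**Figure D3:**
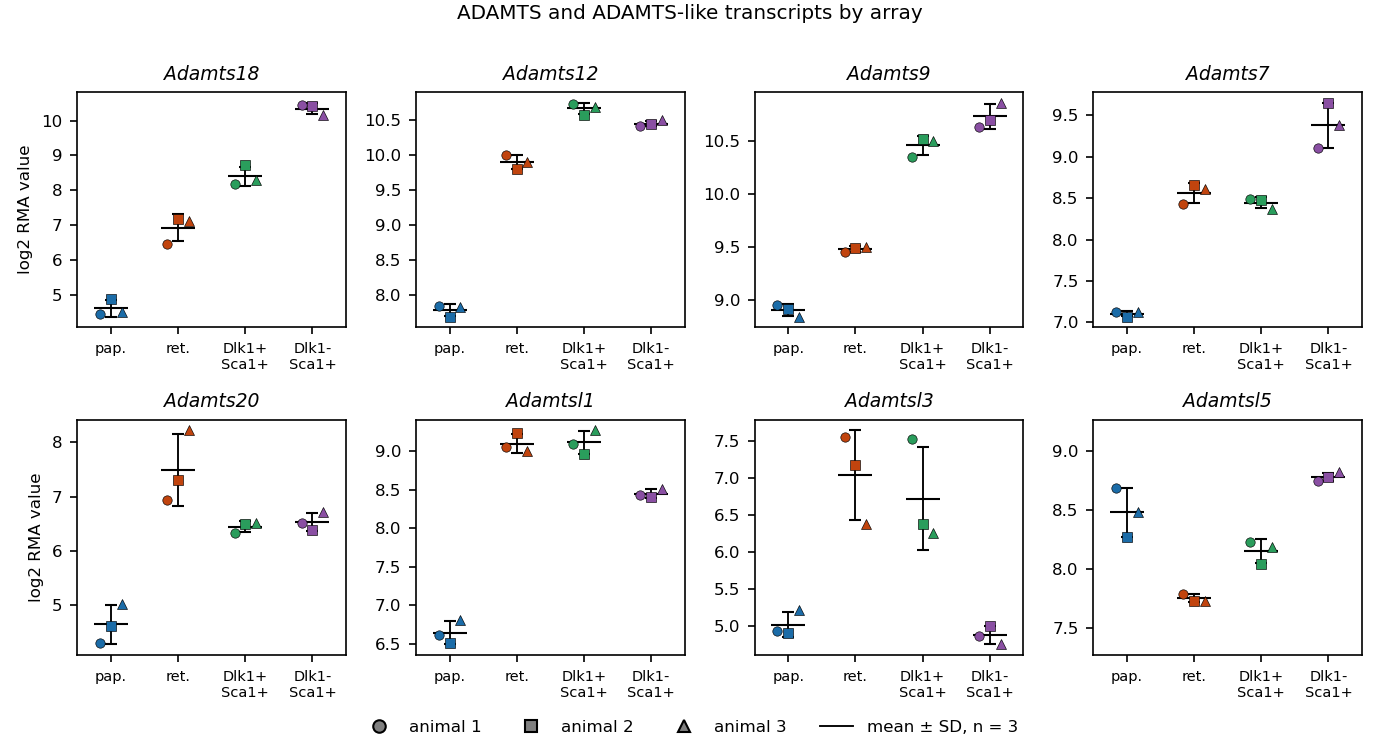
Deposited log2 level of the ADAMTS and ADAMTSL genes given in full, 1 point per animal, with the mean and SD of each population (n = 3). Adamts18 climbs from about 4.6 in papillary to 10.3 in Dlk1- Sca1+ cells, and Adamtsl3 is high in reticular and Dlk1+ Sca1+ cells only.

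All 5 ADAMTSL genes passed the F-test, in patterns of calls that differed except between Adamtsl2 and Adamtsl3. Adamtsl1, whose protein is a matrix component without protease activity, was at 6.61, 6.51 and 6.81 in papillary, 9.06, 9.24 and 9.0 in reticular, 9.10, 8.97 and 9.27 in Dlk1+ Sca1+ and 8.43, 8.41 and 8.51 in Dlk1- Sca1+ cells. Papillary cells were 5.49-fold below reticular cells (-2.46 ± 0.10, adjusted p = 1.9e-09), and Dlk1- Sca1+ cells lay between. Adamtsl3 was at 4.93, 4.91 and 5.21 in papillary and 4.86, 5.0 and 4.76 in Dlk1- Sca1+ cells. In the Dlk1+ gates it was at 7.56, 7.18 and 6.38 in reticular and 7.52, 6.38 and 6.26 in Dlk1+ Sca1+ cells, so the gates with and without Dlk1 did not overlap. Dlk1- Sca1+ cells were 4.49-fold below reticular (-2.17 ± 0.31, adjusted p = 0.000324) and 3.6-fold below Dlk1+ Sca1+ cells (adjusted p = 0.00256), while papillary and Dlk1- Sca1+ cells were not called (0.14, adjusted p = 0.829). Both low groups lay below every array median, so these folds are likewise best read as lower bounds. The mural marker mean was 7.75 in reticular and 7.15 in Dlk1+ Sca1+ cells against 6.28 in papillary and 6.79 in Dlk1- Sca1+ cells. The skeletal muscle marker means were 6.71, 6.28, 5.81 and 5.91 in this order. The part of both lists was not tested.

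Adamtsl5, a microfibril-binding protein, was highest in Dlk1- Sca1+ cells at 8.75, 8.78 and 8.82. It was at 8.69, 8.27 and 8.48 in papillary, 7.79, 7.73 and 7.73 in reticular and 8.23, 8.04 and 8.19 in Dlk1+ Sca1+ cells. The Dlk1- Sca1+ minus reticular difference was 1.03 ± 0.10 (adjusted p = 9.6e-06). Calls of its smaller differences were lost in fits with fewer animals. Dlk1+ Sca1+ minus reticular (0.40) was not called without animal 1, 2 or 3 (adjusted p = 0.0670, 0.0555 and 0.313). The difference itself was 0.385, 0.45 and 0.375 in these fits. Papillary minus Dlk1- Sca1+ (-0.30) was lost without animal 2 or 3 (0.258 and 0.26). Papillary minus Dlk1+ Sca1+ (0.33) was lost without animal 1 or 3 (0.104 and 0.156). Adamtsl4, a fibrillin-associated protein, was highest in Dlk1+ Sca1+ cells, with -0.85 for papillary and -0.80 for Dlk1- Sca1+ minus Dlk1+ Sca1+ cells, while the 0.31 over reticular cells (adjusted p = 0.0482) was lost without any 1 animal. Adamtsl2, another microfibril protein, was lower in papillary than in reticular (-0.38) and Dlk1+ Sca1+ cells (-0.41). Both calls were lost without animal 3 (adjusted p = 0.234 and 0.0816). Dlk1- Sca1+ cells, at 5.35 to 5.59, were low as well and overlapped papillary cells, at 5.49 to 5.68. They were called below reticular and Dlk1+ Sca1+ cells (adjusted p = 0.00854 and 0.0129). The former call was lost without animal 2 or 3, the latter without any 1 animal. All 12 values of Adamtsl2 lay below every array median.

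Among the ADAMs the adhesion-type pair Adam23 and Adam22 moved in opposite directions. Adam23 was at 6.68, 6.03 and 6.57 in papillary, 8.59, 9.27 and 8.95 in reticular, 10.01, 10.09 and 9.99 in Dlk1+ Sca1+ and 8.42, 8.56 and 8.79 in Dlk1- Sca1+ cells. Papillary cells were 12.2-fold below Dlk1+ Sca1+ cells (-3.60 ± 0.18, adjusted p = 8.36e-09) and 5.7-fold below reticular cells (adjusted p = 3.35e-07). Dlk1+ Sca1+ cells were the highest, 2.71-fold above Dlk1- Sca1+ cells (adjusted p = 0.000275) and 2.13-fold above reticular cells (adjusted p = 0.00198; 0.0623 without animal 3). Adam22 was at 9.22, 9.06 and 9.34 in papillary, 8.71, 8.64 and 8.79 in reticular, 7.53, 7.52 and 7.72 in Dlk1+ Sca1+ and 7.03, 7.19 and 7.47 in Dlk1- Sca1+ cells. Its papillary level was 3.94-fold above Dlk1- Sca1+ cells (1.98 ± 0.11, adjusted p = 3.06e-08), and the reticular level was above both Sca1+ populations (adjusted p = 4.11e-05 and 1.48e-06). Dlk1- Sca1+ minus Dlk1+ Sca1+ gave -0.36 (adjusted p = 0.0799; 0.0117 with the block).

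The catalytic ADAMs that were called were mostly low in papillary cells. Adam12, a sheddase of mesenchymal cells, was at 10.16, 10.12 and 9.85 in papillary, 10.78, 11.34 and 11.19 in reticular, 11.32, 11.61 and 11.61 in Dlk1+ Sca1+ and 11.67, 11.82 and 11.68 in Dlk1- Sca1+ cells. Every papillary value lay below every other, by 3.2-fold against Dlk1- Sca1+ cells (-1.68 ± 0.14, adjusted p = 9e-07); the Dlk1- Sca1+ minus reticular difference of 0.62 (adjusted p = 0.00686) was lost without animal 3 (0.0562). Dlk1+ Sca1+ minus reticular gave 0.41 (adjusted p = 0.1; 0.0491 with the block). Adam19, known from heart development and neuregulin shedding, was at 7.76, 7.84 and 7.51 in papillary, 8.96, 8.91 and 8.68 in reticular, 9.13, 8.83 and 8.72 in Dlk1+ Sca1+ and 8.25, 8.11 and 8.27 in Dlk1- Sca1+ cells. Papillary cells were 2.21-fold below reticular and 2.28-fold below Dlk1+ Sca1+ cells (adjusted p = 1.02e-05 and 5.84e-06). The Dlk1- Sca1+ calls were smaller and each was lost without 1 animal: against papillary without animal 3 (0.0714), against reticular without animal 2 (0.0687) and against Dlk1+ Sca1+ cells without animal 1 or 2 (0.0513 and 0.0692).

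Adam9, a widely expressed sheddase, was at 7.60, 7.56 and 7.97 in papillary, 8.25, 8.34 and 8.12 in reticular, 8.63, 8.61 and 8.87 in Dlk1+ Sca1+ and 8.64, 8.40 and 9.14 in Dlk1- Sca1+ cells. It was 2.02-fold lower in the papillary than the Dlk1- Sca1+ gate (adjusted p = 0.000432). Its papillary minus reticular difference of -0.53 (adjusted p = 0.031) was lost without animal 1 or 2 (0.21 and 0.212) and without any of their papillary or reticular arrays, and Dlk1- Sca1+ minus reticular (0.49, adjusted p = 0.0604) was called with the block (0.0256). Adam1a, a sperm-associated gene with a close copy, Adam1b, beside it, was at 6.79, 7.10 and 7.37 in papillary, 8.09, 8.02 and 8.23 in reticular, 8.02, 7.68 and 7.72 in Dlk1+ Sca1+ and 7.37, 7.22 and 7.51 in Dlk1- Sca1+ cells. Its log2 difference, papillary minus reticular, was -1.03 ± 0.14 (adjusted p = 9.54e-05), and probes of such near copies may detect both transcripts. Adam10, the main Notch sheddase, lay between 9.53 and 10.10 and was not called. With the animal as a block its papillary minus Dlk1- Sca1+ (-0.30) and Dlk1- Sca1+ minus reticular (0.30) differences were called (adjusted p = 0.0334 and 0.0426, against 0.0705 and 0.0918 without the block). Of the 14 ADAMs known mainly from testis and sperm, Adam1a and Adam1b passed the F-test.

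The remaining called ADAMs had differences under 1. Adam8, an ADAM of activated leukocytes and other cells, was lower in papillary cells in all 3 comparisons (-0.44, -0.52 and -0.42), with the reticular and Dlk1- Sca1+ calls lost without animal 3 (adjusted p = 0.0521 and 0.071). Adam17, the TNF sheddase, was below the Dlk1- Sca1+ level in papillary cells (-0.47, adjusted p = 0.0072; 0.0582 without animal 1), and against reticular cells with the block only (-0.33, adjusted p = 0.0508 and 0.0092). Adam33, a mesenchymal ADAM, was above the Dlk1- Sca1+ level in papillary cells (0.73, adjusted p = 0.000191). Its 0.30 over Dlk1+ Sca1+ cells was called with the block only (adjusted p = 0.0595 and 0.0177), its Dlk1- Sca1+ minus Dlk1+ Sca1+ call was lost without any 1 animal (0.22, 0.133 and 0.0805), and its Dlk1- Sca1+ minus reticular call without animal 1 or 2 (0.202 and 0.118). The papillary minus reticular call of Adam33 was lost without any 1 animal as well (0.0701, 0.186 and 0.0701). The calls of Adam1b and of Adam4, which was called once (0.44, papillary minus Dlk1- Sca1+), were each lost under several omissions of an animal or array. With the block further differences were called for Adam11 (0.41, papillary minus Dlk1- Sca1+, adjusted p = 0.0289), Adam15 (0.24 and 0.25, papillary minus reticular and minus Dlk1- Sca1+, 0.0405 and 0.0335), Adam1b (-0.32, Dlk1- Sca1+ minus reticular, 0.0477) and, among dim genes, Adam18 (0.19, papillary minus Dlk1+ Sca1+, 0.044) and Adam26a (-0.15 and -0.17, papillary and Dlk1- Sca1+ minus reticular, 0.0451 and 0.0421). Without the block Adam11, Adam15 and Adam28 were not called, at 6.02 to 6.84, 8.85 to 9.33 and 6.41 to 7.05, nor were 11 reproductive ADAMs with all values below every array median.

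**Figure D4:**
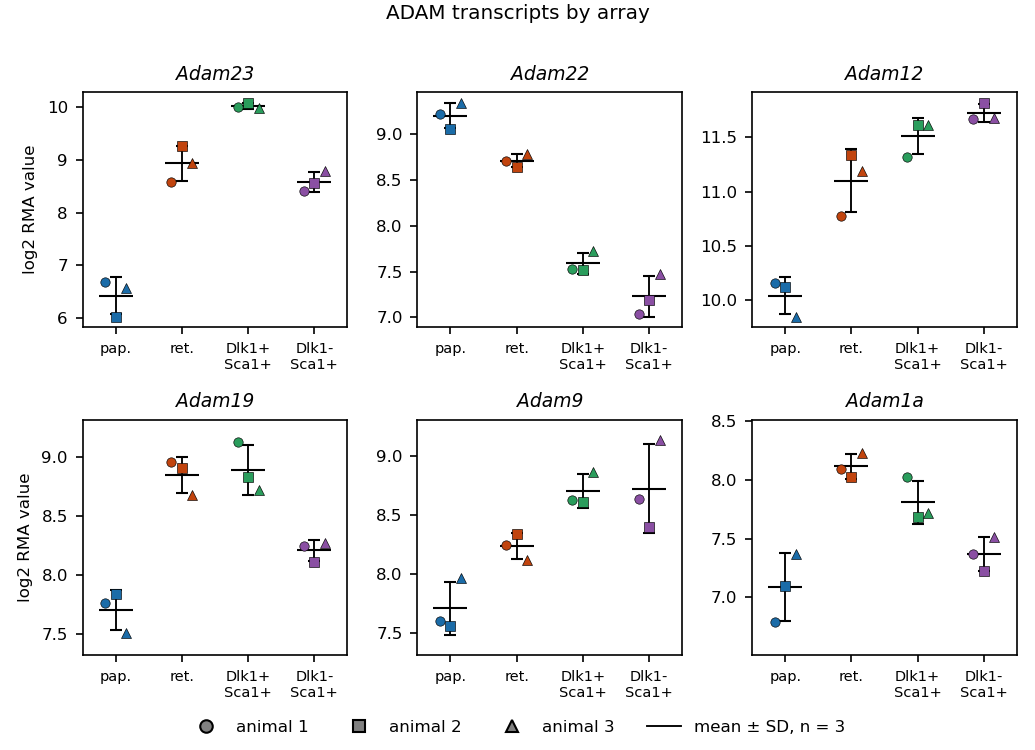
Deposited log2 level of the ADAM genes given in full, 1 point per animal, with the mean and SD of each population (n = 3). Adam22 is highest in papillary cells, while Adam23, Adam12, Adam19 and Adam9 are lowest there.

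Of the 18 MMPs 7 passed the F-test, 38.9% against 35.7% of all genes: Mmp3, Mmp11, Mmp14, Mmp16, Mmp17, Mmp19 and Mmp23. Mmp16, a membrane-type MMP, was at 9.35, 9.17 and 9.31 in papillary, 9.99, 10.05 and 9.85 in reticular, 8.97, 8.80 and 8.88 in Dlk1+ Sca1+ and 7.50, 7.70 and 7.86 in Dlk1- Sca1+ cells. No population overlapped another, and Dlk1- Sca1+ cells were 4.85-fold below reticular (-2.28 ± 0.10, adjusted p = 1.4e-08) and 3.01-fold below papillary cells (adjusted p = 6.47e-08). The smallest difference, papillary minus Dlk1+ Sca1+ (0.39, adjusted p = 0.00839), was lost without animal 2 or 3 (0.0646 and 0.064). As for Adamts20, the reticular arrays in which it was highest had the highest mural and muscle marker means, whose part was not tested.

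Mmp19, which cuts basement membrane proteins, was at 9.87, 9.74 and 9.54 in papillary, 10.43, 10.82 and 10.49 in reticular, 11.66, 11.75 and 11.62 in Dlk1+ Sca1+ and 11.61, 11.64 and 11.63 in Dlk1- Sca1+ cells. Papillary cells were 3.89-fold below Dlk1+ Sca1+ cells (-1.96 ± 0.11, adjusted p = 1.82e-08), reticular cells lay between, and the Sca1+ populations overlapped. Mmp17, anchored to the membrane by a lipid, was at 6.28, 6.56 and 6.55 in papillary, 7.31, 7.51 and 7.05 in reticular, 7.47, 7.44 and 7.39 in Dlk1+ Sca1+ and 7.16, 7.85 and 7.69 in Dlk1- Sca1+ cells. All papillary values were the lowest, by 2.15-fold against Dlk1- Sca1+ cells (adjusted p = 0.000166). Mmp14, which activates pro-Mmp2, was at 11.91, 11.84 and 11.70 in papillary, 11.51, 11.57 and 11.38 in reticular, 11.50, 11.45 and 11.43 in Dlk1+ Sca1+ and 11.33, 11.42 and 11.41 in Dlk1- Sca1+ cells. It was 0.33 to 0.43 higher in papillary cells (adjusted p = 0.00578, 0.00338 and 0.000932); the reticular call was lost without animal 1 or 2 (0.0579 and 0.0532) and the Dlk1+ Sca1+ call without animal 2 (0.0624). Mmp2, a gelatinase and collagen protease, lay between 11.61 and 11.92 and was not called. Mmp11, a stromelysin-like MMP of stroma, was 0.67 higher in the papillary than the Dlk1+ Sca1+ gate (adjusted p = 0.000107), and its other 4 calls, under 0.4 in size, were lost under several omissions. Mmp23, a membrane-linked MMP, was 0.44 higher in papillary than in reticular cells (adjusted p = 0.00371). Dlk1+ Sca1+ cells (mean 11) were called above reticular cells (mean 10.54) as well, a call lost without either of 2 animals. With the block Mmp23 was also called for papillary minus Dlk1- Sca1+ (0.28, adjusted p = 0.0192) and Dlk1- Sca1+ minus Dlk1+ Sca1+ cells (-0.30, adjusted p = 0.0343), and Mmp24 for papillary minus Dlk1+ Sca1+ cells (-0.22, adjusted p = 0.0355). Without the block Mmp24 and Mmp9 were not called, at 6.93 to 7.35 and 5.67 to 6.07.

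Mmp3, a stromelysin that cuts many matrix proteins, was the one gene of its genomic cluster that passed the F-test. Its levels were 5.22, 5.29 and 5.61 in papillary, 5.79, 5.91 and 5.72 in reticular, 7.37, 6.62 and 6.26 in Dlk1+ Sca1+ and 5.57, 5.75 and 5.66 in Dlk1- Sca1+ cells. Every Dlk1+ Sca1+ value was above every other, by 2.6-fold over papillary cells (adjusted p = 0.000226). The differences from reticular (0.94, adjusted p = 0.0137) and Dlk1- Sca1+ cells (adjusted p = 0.00609) were lost without animal 2 (0.12 and 0.0798), and the former also without animal 1 (0.0503) or the reticular array of animal 3 (0.0538). RefSeq places 9 MMP genes in a run with at most 1 other gene between neighbours: Mmp13, Mmp12, Mmp1b, Mmp3, Mmp1a, Mmp10, Mmp8, Mmp20 and Mmp7. The other 8 did not pass, and all 12 values of each lay below every array median. By limma, 0 of the 4 collagenases were called, and 0 had an unadjusted F-test p under 0.05.

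The 100 bases before the start of 4 of these genes are shown because they share an AP-1 site, TGANTCA, which reads alike on both strands. It is in capitals, as is TATAAA, which Mmp3, Mmp10 and Mmp13 hold and the Mmp12 window does not. All lie on the plus strand of GRCm38.p6: Mmp3 at chr9:7445722-7445821, Mmp10 at chr9:7502242-7502341, Mmp13 at chr9:7272414-7272513 and a window of Mmp12 at chr9:7347274-7347373.
Mmp3: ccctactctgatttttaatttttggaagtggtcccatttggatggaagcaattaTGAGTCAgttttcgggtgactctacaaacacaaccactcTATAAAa
Mmp10: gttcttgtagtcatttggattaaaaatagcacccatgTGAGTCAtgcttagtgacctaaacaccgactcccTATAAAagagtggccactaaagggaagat
Mmp13: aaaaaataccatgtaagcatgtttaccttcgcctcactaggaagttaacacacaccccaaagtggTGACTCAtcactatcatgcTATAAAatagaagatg
Mmp12: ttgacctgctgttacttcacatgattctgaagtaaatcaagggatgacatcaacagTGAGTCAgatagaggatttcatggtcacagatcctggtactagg
The AP-1 match begins 46, 63, 35 and 44 bases before the start in this order. The 9 genes have 11 windows of this length, 1 more each for Mmp12 and Mmp7. An AP-1 match was found in 8 of the 11, in every gene but Mmp8, against 2.73% of all 32851 windows, and TATAAA on either strand in 7 of the 11, against 5.56% of all. Matches to TGANTCA were held by Mmp3, which passed the F-test, and by 7 neighbours that did not pass it. The letter N stands for any base. Read along the gene, it was C in Mmp13, A in Mmp20 and G in the others. These are matches of letters and no measure of binding.

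The 3 TIMPs measured each had a different pattern. Timp1 was at 7.49, 7.39 and 7.69 in papillary, 9.10, 9.41 and 9.19 in reticular, 9.61, 9.69 and 9.78 in Dlk1+ Sca1+ and 9.20, 8.99 and 9.36 in Dlk1- Sca1+ cells. It was 4.5-fold lower in papillary than in Dlk1+ Sca1+ fibroblasts (-2.17 ± 0.11, adjusted p = 1.26e-08) and 3.27-fold and 3.16-fold lower than in reticular and Dlk1- Sca1+ cells. The excess of Dlk1+ Sca1+ over Dlk1- Sca1+ cells (adjusted p = 0.0147) was lost without any 1 animal (0.0939, 0.112 and 0.0759), and the excess over reticular cells (0.46, adjusted p = 0.0251) without animal 1 or 3 (0.17 and 0.219).

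Timp3, the TIMP bound to matrix and the one that inhibits ADAM17 and ADAMTS proteases, was at 9.04, 9.12 and 9.19 in papillary, 10.30, 9.95 and 9.95 in reticular, 9.41, 9.29 and 9.06 in Dlk1+ Sca1+ and 10.46, 9.85 and 10.04 in Dlk1- Sca1+ cells. Papillary and Dlk1+ Sca1+ cells were low and the other populations high, without overlap (papillary minus Dlk1- Sca1+ -1.0 ± 0.15, adjusted p = 0.000197). Without animal 3 the Dlk1+ Sca1+ calls were lost (0.0969 against reticular, 0.0851 against Dlk1- Sca1+ cells). Timp2, which also helps Mmp14 to activate Mmp2, was at 12.24, 12.19 and 12.08 in papillary, 12.06, 12.04 and 11.97 in reticular, 11.97, 11.90 and 11.95 in Dlk1+ Sca1+ and 11.72, 11.83 and 11.80 in Dlk1- Sca1+ cells. The papillary minus Dlk1- Sca1+ difference of 0.39 was called (adjusted p = 0.000906), and the calls of papillary against Dlk1+ Sca1+ and of Dlk1- Sca1+ against reticular cells were lost without any 1 of the 3 animals.

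**Figure D5:**
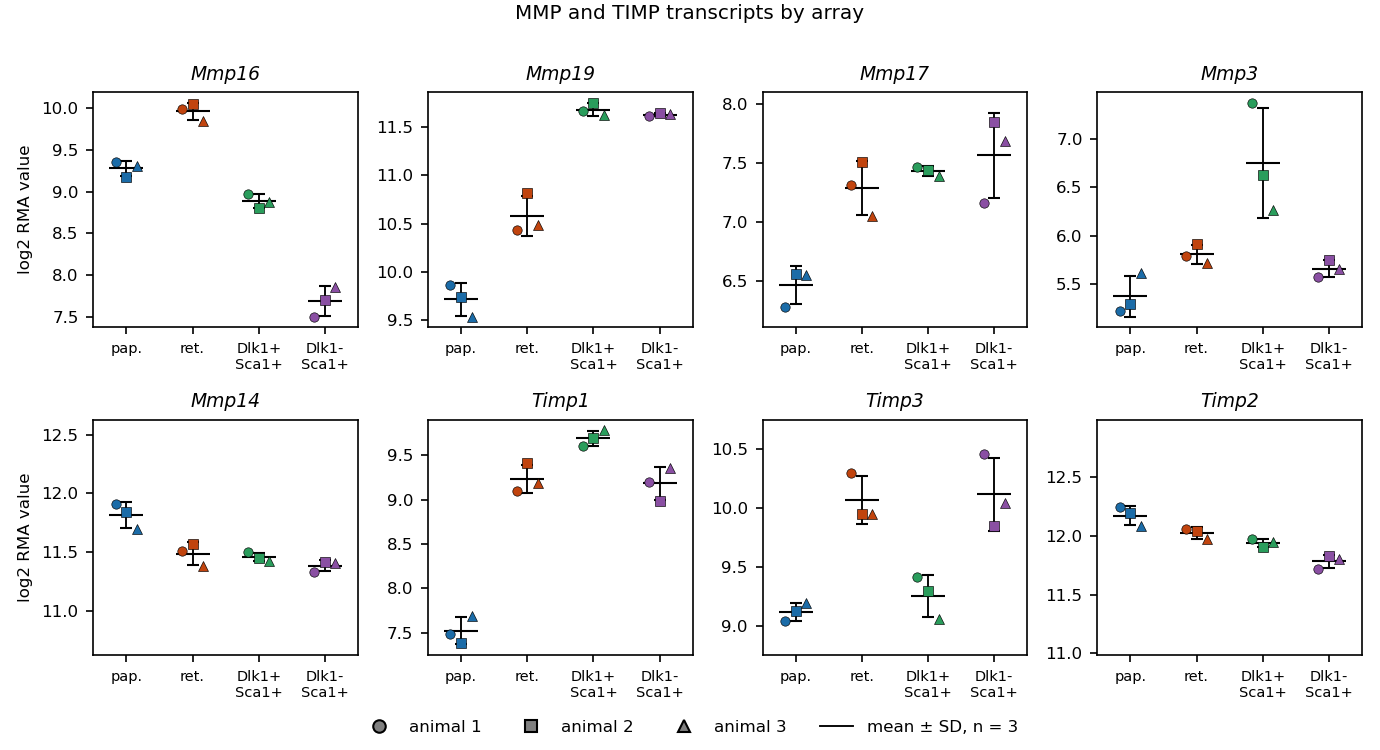
Deposited log2 level of the MMP and TIMP genes given in full, 1 point per animal, with the mean and SD of each population (n = 3). Timp1 is low only in papillary cells, Timp3 is low in papillary and Dlk1+ Sca1+ cells, and Mmp16 falls from reticular to Dlk1- Sca1+ cells.

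Proteases that activate MMPs and other partners, a list of 21 genes, split by direction. Dpp4, which encodes the sort marker CD26, is on this list, so any difference of it was set by the gate and is no result. The counts of this list still include it. This list and those that follow were chosen with earlier results of these data known, so their shares are descriptive only. Compared with reticular cells 6 of the 21 were higher and 7 lower in papillary cells, with a list median of 0.01. That is 61.9% called, where 27.5% of all genes were (13.9% higher and 13.6% lower); the same background holds for the lists that follow, which are papillary against reticular cells too. Plat, which activates plasminogen, was lower in papillary cells by -5.03 (mean 4.85 against 9.87, adjusted p = 3.97e-12), Fap, a fibroblast surface protease, by -2.86 and the convertase Pcsk5 by -1.60, while the serine protease Prss23 was higher by 3.57. Of 14 other metalloproteases and procollagen-processing genes 3 were higher and 4 lower (50% called). Pappa2, which cuts IGF-binding proteins, was lower by -3.47, the procollagen C-proteinase enhancer Pcolce was lower by -1.50, and the peptidase Mme was higher by 1.56.

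Inhibitors outside the TIMP family, 15 measured of 18 listed, had 2 members higher and 4 lower in papillary than in reticular cells (40% called). Tfpi2, Serpinf1 and Serping1 were lower, by -2.67, -1.84 and -1.70, and Reck, a membrane-anchored MMP inhibitor, was higher by 1.13 (adjusted p = 0.00299). Of 12 measured ADAMTS substrates 2 were higher and 2 lower, 33.3% called and so near the 27.5% of all genes; versican, Vcan, was lower in papillary cells by -0.59 against reticular and -0.81 against Dlk1+ Sca1+ cells. Among 8 helpers of ADAM sheddases 1 was higher and 3 lower (50% called), among the latter Rhbdf1 and Rhbdf2, partners of ADAM17, at -0.85 and -0.63. Of 25 measured sheddase substrates 1 was higher and 11 lower in papillary than in reticular cells, 48% called, with a list median of -0.31, and Jag1 (-2.54), Notch1 (-2.09) and Kitl (-1.93) were among them. This list includes Dlk1, by which the gates were sorted, so any difference of Dlk1 was set by the sort and is no result. The counts were not repeated without it.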

How the data were processed

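The authors deposited log2 expression values for 12 Affymetrix arrays, rounded to 2 decimals; per the submitters' processing notes they used RMA and affy, with versions and genome build not given in the sources used here. RNA of 4500 cells per sample was amplified over 21 cycles and 8 µg of cDNA was labelled, per the labels' protocols, which can compress differences. No intensities or sequencing depth apply; 3 arrays per population limit the precision.

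Of 45141 probe sets, 28898 had 1 gene symbol in GEO's platform annotation, 551 had several, 15588 were unnamed here and 104 were controls. The brightest probe set on average stood for a gene, and 30 of the 66 members had more than 1. One linear model with a coefficient per population was fitted over 17097 genes with limma 3.58.1 in R 4.3.3 (8 residual and 4.475 prior degrees of freedom), checked on simulated data. The members and lists were chosen with earlier results of these data known. Full values are given for the 4 marker genes, the TIMPs and members called with an absolute log2 difference of at least 1, and up to 4 called genes per list are named. The labels number the littermates, so arrays are paired by animal: deviations of arrays of 1 animal had a mean correlation of 0.27 across genes, and those of different animals -0.13. Alternatives were the animal as a block, leaving out each animal or array, other scaling, mean of probe sets, a filter at log2 5, only the compared populations, and a trended robust variance.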

Additional observations from a re-analysis of the deposited data

How the results depend on the processing

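Of 150 called member differences, 101 were called under every alternative, 49 were lost under at least 1, of which 31 only when an animal or array was left out, and 0 reversed. Leaving out 1 animal gave between 8 and 14 called members for Dlk1+ Sca1+ minus reticular (20 with all arrays) and between 10 and 11 for Dlk1- Sca1+ minus Dlk1+ Sca1+ (16). Leaving out 1 array gave 12 to 19 and 14 to 17. Fewer arrays lower the power of each such fit, and the share of all genes called in them was not computed. With the animal as a block 36, 35, 32, 21, 27 and 20 members were called in the 6 comparisons, in the order papillary minus reticular, Dlk1+ Sca1+ and Dlk1- Sca1+, then Dlk1+ Sca1+ minus reticular, Dlk1- Sca1+ minus reticular and Dlk1- Sca1+ minus Dlk1+ Sca1+. Over all 17097 genes the calls rose as well, from 4702, 4787, 4508, 1441, 3104 and 1258 to 5755, 5774, 5484, 2135, 4110 and 1897. The block lost no member's call, and the members whose calls it added are given beside their values. The F-test passed 31 to 39 members over all alternatives. Of 89 called gene-comparison pairs with more than 1 probe set, 27 had another probe set that was not called and 0 had one called in the opposite direction. Among the 66 members 25 had all 12 values below every array median. Differences there may be understated, which was not tested.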
